A study of Mus musculus with 6 samples.

Results

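The 10 genes of the ATF4 stress response examined in fat were the transcription factors Atf4, Atf5 and Ddit3, the intracellular genes Trib3, Asns, Chac1, Sesn2 and Nupr1, and the secreted factors Fgf21 and Gdf15. They were chosen by name, with earlier results of these data known, and 10 of 10 were found among the 35275 genes of the deposited table. Their mRNA was measured by RNA sequencing of whole epididymal fat, a visceral depot, from male C57BL/6 mice. The 3 control samples carry the genotype Tfrcfl/fl, with loxP sites in both copies of Tfrc, the transferrin receptor gene. The 3 knockout samples carry the genotype TfrcAKO, known as deletion of that gene in adipocytes; the abbreviation is not explained in the labels, and the Cre line is not given in the sources used here. Both groups were on a diet with 60% fat for 10 weeks from 2 months of age and were sampled at 4.5 months, so that every value below is from fat of mice on the high fat diet.

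ATF4 is a basic leucine zipper transcription factor at the centre of the integrated stress response. Kinases that sense lack of amino acids, lack of heme, unfolded proteins in the endoplasmic reticulum or double-stranded RNA phosphorylate the translation factor eIF2, which slows protein synthesis in general and favours translation of the Atf4 mRNA. ATF4 protein then drives genes for amino acid uptake and synthesis, redox balance and, when stress persists, cell death, and it pairs with C/EBP proteins on a shared DNA element. FGF21 and GDF15 are called mitokines because cells with failing mitochondria secrete them; mRNA levels, as measured here, give neither translation nor secretion.

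The libraries held 25252839 to 30650624 reads assigned to genes, and levels are given in FPKM, fragments per kilobase of gene and 1000000 assigned reads. Comparison between genes rests on the deposited gene length, which was not checked against the transcripts present in the tissue. Tfrc itself, listed for replicates 1, 2 and 3 in this order here and below, was at 11.1, 13.2 and 11.9 FPKM in control tissue. In knockout tissue it was at 7.10, 8.27 and 9.50 FPKM, all below the control samples. In limma, a linear model fitted over all genes on the log2(FPKM + 0.5) scale, 6253 of 14383 tested genes, or 43.5%, passed an adjusted p under 0.05. Of the tested genes 21.9% passed it as higher and 21.6% as lower in the knockout, and these shares are the background for the counts below. Mature adipocyte markers were above 0 in the tissue, with 12 of 12 tested, and their summed level was 7043 to 10254 FPKM in control and 18655 to 25305 FPKM in knockout samples. Summed levels of 12 macrophage markers were 5535 to 6429 FPKM in control and 1338 to 2990 FPKM in knockout samples. In limma 11 of 12 adipocyte markers rose and 11 of 12 macrophage markers fell, the latter 5 without control replicate 2 and 7 without control replicate 3. Knockout replicate 3 had the highest adipocyte and the lowest macrophage sum. Most of the adipocyte sum was Fabp4, at 4863 to 7208 FPKM in control and 12391 to 15685 FPKM in knockout samples. The largest part of the macrophage sum was Lyz2, at 2933 to 3624 FPKM in control and 664 to 1473 FPKM in knockout samples. In whole tissue, fewer cells of a type and less RNA per cell cannot be told apart. Of the other marker lists, 8 of 8 genes of lipid-associated macrophages and 2 of 3 tested neutrophil genes fell; 5 of 5 endothelial, 3 of 4 pericyte and smooth muscle, 4 of 5 mesothelial and 1 of 2 tested skeletal muscle genes rose. None of 7 lymphocyte genes and none of 5 progenitor genes passed the limma threshold. Epididymal genes summed to at most 1.53 FPKM, with Lcn5 at 0 in every sample. The part of these shifts in the results below was not tested.

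Of the 10 genes, 8 rose in the knockout, 1 fell and 1 did not pass the test. Atf5, Ddit3, Trib3, Asns, Chac1, Sesn2, Nupr1 and Fgf21 rose, Gdf15 fell, and Atf4 itself was not called. The background shares in the same limma fit were 21.9% higher and 21.6% lower. The 10 genes had a median log2 fold change of 0.69, against −0.03 for all tested genes. In 10 of 10 genes no knockout sample lay within the range of the control samples, which also held for 60.1% of all tested genes, 29.1% with the knockout samples higher and 31.0% with them lower. All 10 genes had at least 0.5 FPKM in 6 of 6 samples, so none entered the test through 1 group alone.

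**Figure D1:**
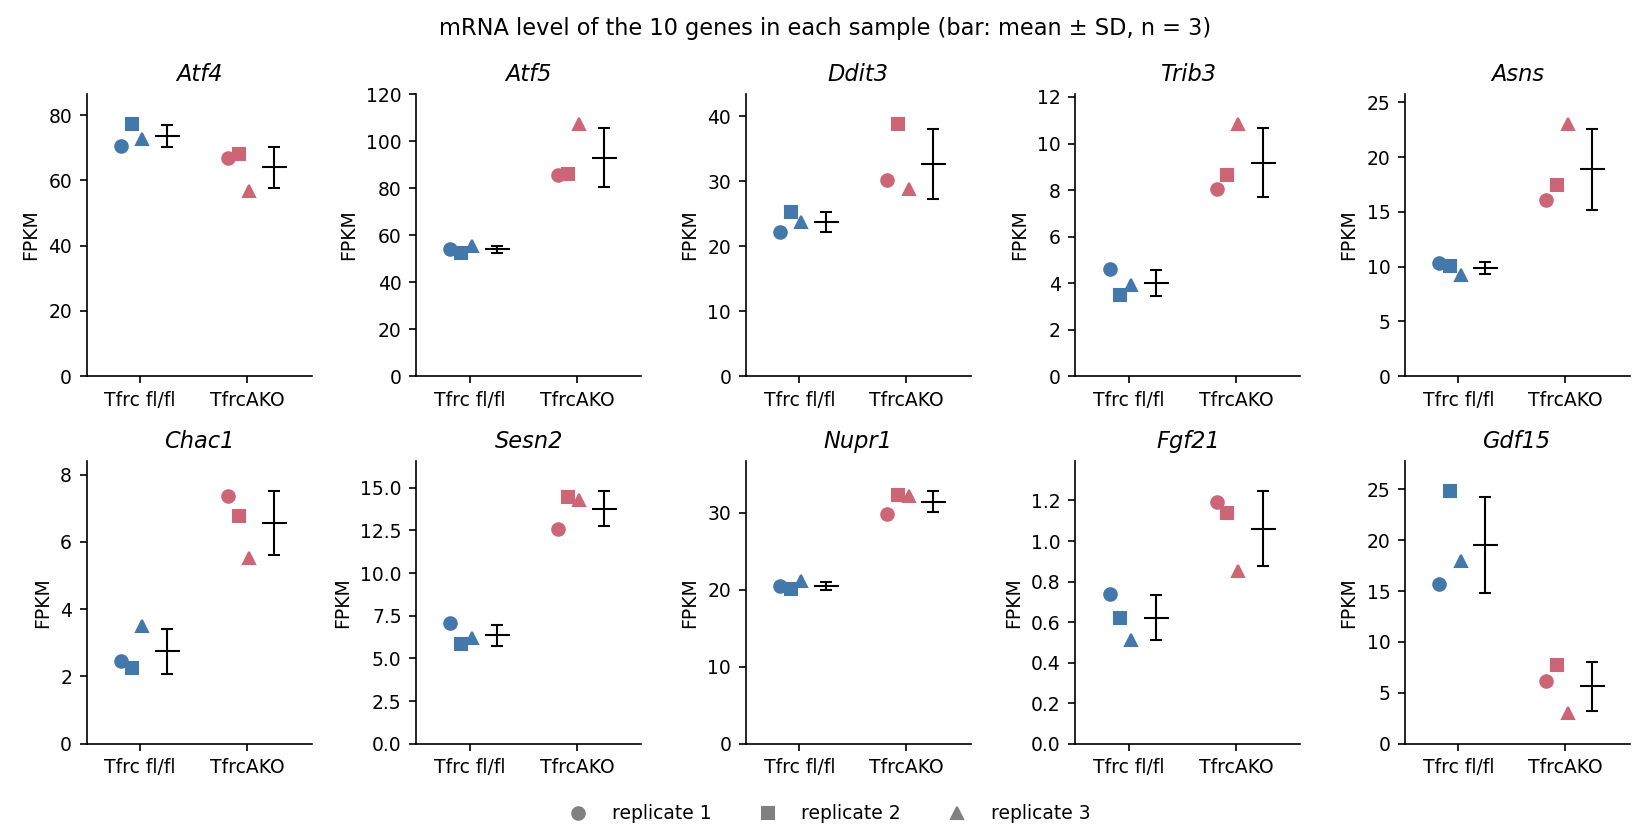
Level of each of the 10 genes in every sample, in FPKM on linear axes from 0, with 1 symbol per replicate and a bar for the mean ± SD (n = 3). Symbols of control (Tfrc fl/fl, blue) and knockout (TfrcAKO, red) do not overlap in any panel; knockout samples are lower for Atf4 and Gdf15 and higher for the other 8.

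Atf4 (ENSMUSG00000042406, mm10 chromosome 15, 80255184 to 80257540, plus strand) was the most abundant of the 10 genes in control tissue. Control samples had 70.6, 77.3 and 72.6 FPKM, and knockout samples had 66.9, 68.1 and 56.8 FPKM. All 3 knockout samples lay below the lowest control sample, with knockout replicate 3 lowest. The means were 73.5 ± 3.44 and 63.9 ± 6.24 FPKM (SD, n = 3 each). The log2 fold change was −0.20 with a 95% interval from −0.43 to 0.02 and a limma adjusted p of 0.121, so a change of the mRNA did not pass the test.

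Atf5, the ATF4 relative that takes part in the mitochondrial unfolded protein response of mammalian cells, rose (ENSMUSG00000038539, chromosome 7, 44812257 to 44816658, minus strand). Its level was 54.1, 52.4 and 55.5 FPKM in the control replicates and 85.5, 86.0 and 107 FPKM in the knockout replicates. Control samples lay close together, and knockout replicate 3 was highest. On the log2 scale it rose by 0.77 ± 0.11 (SE, limma adjusted p = 0.00415). The start of Atf5 overlaps Nup62 by 571 bases and Il4i1 by 289 bases on the opposite strand, and whether counting used the strand is not given in the sources used here. Nup62 fell, from 13.9, 17.7 and 16.3 FPKM to 9.92, 9.50 and 7.996 FPKM, and Il4i1 was not called (limma adjusted p = 0.00534 and 0.174).

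Ddit3, which encodes CHOP, a C/EBP family factor that promotes cell death under lasting stress, rose less (ENSMUSG00000025408, chromosome 10, 127290774 to 127296288, plus strand). Control samples had 22.2, 25.3 and 23.7 FPKM of it, knockout samples 30.3, 38.9 and 28.9 FPKM. Knockout replicate 2 stood above the other knockout samples. Its rise was 0.44 ± 0.12 on the log2 scale (SE, limma adjusted p = 0.0266). The call was lost when any control library was left out, with limma adjusted p of 0.0833, 0.0601 and 0.0812 without control replicates 1, 2 and 3. Ddit3 overlaps Mars by 68 bases at its end and Gm4189 by 15 bases at its start, both on the opposite strand, and neither of these passed the limma threshold (adjusted p = 0.0814 and 0.561).

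Within each sample the balance of the factors differed between the groups. The ratio of Atf5 to Atf4 in FPKM was 0.767, 0.678 and 0.765 in control replicates and 1.28, 1.26 and 1.89 in knockout replicates. The ratio of Ddit3 to Atf4 was 0.314, 0.327 and 0.326 in control and 0.453, 0.570 and 0.509 in knockout replicates. Thus Atf4 mRNA exceeded Atf5 mRNA in every control sample and lay below it in every knockout sample. For each of the 5 ratios computed, these and 3 given later, an exact two-sided permutation test gave p = 0.1, before and after adjustment, which is the smallest p that 3 against 3 samples allow.

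The 4 intracellular target genes and Nupr1 rose, 5 of 5. Their promoters are shown because 4 of these 5 genes and Fgf21 hold the core of the C/EBP-ATF response element, the letters TGATGNAA, on either strand. All 10 genes were found in RefSeq's promoter windows (GRCm38.p6, the mm10 assembly), which reach from 250 bases before to 50 bases after the start of transcription; Atf5 and Gdf15 have more than 1 window. The element was found in Chac1, Trib3, Asns, Nupr1 and Fgf21, 1 match each, and its letters are not in the windows of Atf4, Atf5, Ddit3, Sesn2 and Gdf15. Each window is written 5′ to 3′ along the gene's own strand, with the match in capitals. Apart from TGATGNAA, only its stricter form TGATGCAA was searched.
Chac1 promoter, GRCm38.p6 chr2:119350992-119351291, plus strand: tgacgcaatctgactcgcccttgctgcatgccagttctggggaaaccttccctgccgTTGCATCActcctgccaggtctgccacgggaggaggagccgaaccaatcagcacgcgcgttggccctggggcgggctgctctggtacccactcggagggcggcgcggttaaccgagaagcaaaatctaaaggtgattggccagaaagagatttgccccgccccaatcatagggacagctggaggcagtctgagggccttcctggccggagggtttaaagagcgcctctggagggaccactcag
Trib3 promoter, GRCm38.p6 chr2:152344011-152344310, minus strand: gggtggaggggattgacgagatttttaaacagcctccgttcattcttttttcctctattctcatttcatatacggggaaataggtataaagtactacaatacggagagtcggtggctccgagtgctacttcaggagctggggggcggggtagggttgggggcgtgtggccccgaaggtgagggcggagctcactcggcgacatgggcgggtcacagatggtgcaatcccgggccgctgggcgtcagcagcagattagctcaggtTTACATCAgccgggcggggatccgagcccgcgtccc
Asns promoter, GRCm38.p6 chr6:7693160-7693459, minus strand: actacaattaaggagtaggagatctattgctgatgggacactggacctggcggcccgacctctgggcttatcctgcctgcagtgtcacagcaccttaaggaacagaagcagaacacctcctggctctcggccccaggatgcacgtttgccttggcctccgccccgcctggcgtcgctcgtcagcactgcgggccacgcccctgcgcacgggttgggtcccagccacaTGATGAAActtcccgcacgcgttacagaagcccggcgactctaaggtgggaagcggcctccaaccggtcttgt
Nupr1 promoter, GRCm38.p6 chr7:126625421-126625720, minus strand: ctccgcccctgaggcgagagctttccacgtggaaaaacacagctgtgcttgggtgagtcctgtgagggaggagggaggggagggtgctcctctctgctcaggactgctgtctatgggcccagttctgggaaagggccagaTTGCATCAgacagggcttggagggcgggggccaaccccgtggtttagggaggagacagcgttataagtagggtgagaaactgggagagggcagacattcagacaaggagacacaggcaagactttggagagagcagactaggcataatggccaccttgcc
Fgf21 promoter, GRCm38.p6 chr7:45615441-45615740, minus strand: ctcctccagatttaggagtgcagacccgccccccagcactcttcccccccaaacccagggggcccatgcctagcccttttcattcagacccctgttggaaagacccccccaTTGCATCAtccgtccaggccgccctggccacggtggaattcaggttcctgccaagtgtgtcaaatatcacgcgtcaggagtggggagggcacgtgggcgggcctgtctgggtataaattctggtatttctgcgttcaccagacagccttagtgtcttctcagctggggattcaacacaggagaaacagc
Counted from the start of transcription, the match begins at base −193 in Chac1, −139 in Fgf21, −110 in Nupr1, −23 in Asns and 15 in Trib3. For Nupr1 the RefSeq start lies inside the span that the deposited table gives the gene, downstream of its first base, so its position refers to that internal start. Chac1, Fgf21 and Nupr1 share the letters TTGCATCA, the reverse complement of TGATGCAA, while Trib3 has TTACATCA and Asns TGATGAAA. Of all 32851 windows of the same length, 3.97% hold TGATGNAA and 0.895% hold TGATGCAA. By gene, 5 of 10 members and 4.51% of 27025 genes hold TGATGNAA. Over the tested genes with a window, 22.1% of the 289 with the element and 22.1% of the 9825 without it were called higher in limma, so the letters alone did not mark genes that rose. A match describes the sequence and is no evidence of binding.

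Trib3, a pseudokinase that binds AKT and restrains ATF4 and CHOP, rose from 4.602, 3.49 and 3.92 FPKM in control replicates to 8.05, 8.64 and 10.8 FPKM in knockout replicates (ENSMUSG00000032715, chromosome 2, 152337422 to 152344032, minus strand). Every knockout sample lay above every control sample, and knockout replicate 3 was highest. The change was 1.10 ± 0.14 on the log2 scale (SE, limma adjusted p = 0.00393). The ratio of Trib3 to Ddit3 was 0.207, 0.138 and 0.166 in control and 0.266, 0.222 and 0.375 in knockout replicates, so Trib3 was higher relative to Ddit3 as well.

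Asns, asparagine synthetase, rose from 10.4, 10.0 and 9.22 FPKM to 16.1, 17.5 and 23.0 FPKM (ENSMUSG00000029752, chromosome 6, 7675169 to 7693254, minus strand). Knockout replicate 3 was the highest sample. On the log2 scale the rise was 0.89 ± 0.14 (SE, limma adjusted p = 0.00536). Its promoter differs from the other 4 shown in carrying the element in the direction of the gene.

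Chac1, an enzyme that breaks down glutathione, rose as well (ENSMUSG00000027313, chromosome 2, 119351229 to 119354381, plus strand). Control samples were at 2.47, 2.25 and 3.50 FPKM; knockout samples reached 7.37, 6.78 and 5.52 FPKM. Here knockout replicate 3 was the lowest of the knockout samples. Its log2 fold change was 1.13 ± 0.17 (SE, limma adjusted p = 0.00523), with a 95% interval of 0.72 to 1.54 that overlaps those of the other 7 genes that rose.

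Sesn2, sestrin 2, a stress-induced inhibitor of mTORC1 that senses leucine, rose from 7.05, 5.86 and 6.18 FPKM to 12.6, 14.5 and 14.3 FPKM (ENSMUSG00000028893, chromosome 4, 132492032 to 132510501, minus strand). The groups were far apart compared with their spread, and the log2 fold change was 1.06 ± 0.10 (SE, limma adjusted p = 0.00339), the smallest p of the 10 genes. The predicted gene Gm12981 lies inside Sesn2 on the same strand and was below 2 FPKM in every sample. It was called higher too (limma adjusted p = 0.0403), but it reached 0.5 FPKM only in the knockout samples and so entered the test through them alone.

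Nupr1, a small stress-induced nuclear protein that acts as a transcription cofactor, rose by a smaller and even amount (ENSMUSG00000030717, chromosome 7, 126623249 to 126630861, minus strand). The values were 20.4, 20.1 and 21.1 FPKM in control and 29.9, 32.3 and 32.2 FPKM in knockout replicates. Spread within either group was slight, and the log2 fold change was 0.60 ± 0.07 (SE, limma adjusted p = 0.00366).

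**Figure D2:**
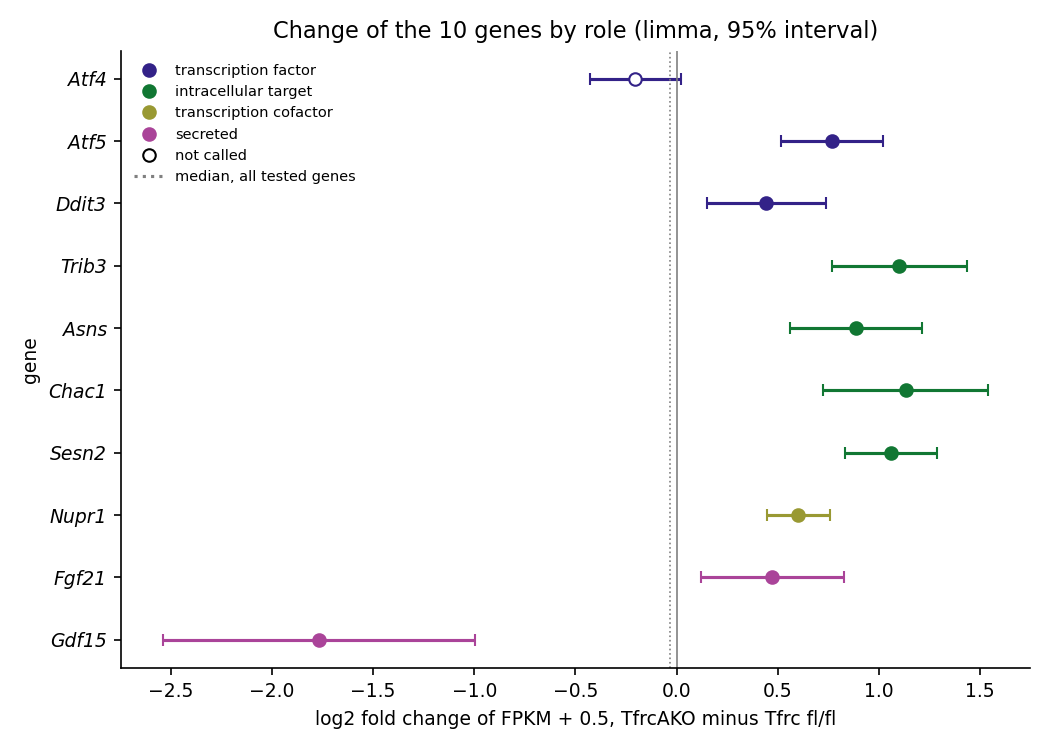
Log2 fold change of FPKM + 0.5, knockout minus control, for each gene (points) with its 95% interval from limma (bars), coloured by role; the open point was not called and the dotted line is the median of all tested genes, −0.03. The 4 intracellular targets lie between 0.89 and 1.13, Atf4 at −0.20 with an interval that reaches 0.02, and the secreted factors at 0.47 and −1.77.

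The secreted factors moved in opposite directions. Fgf21, a hormone that acts through FGF receptors with the coreceptor β-Klotho, was the least abundant of the 10 genes (ENSMUSG00000030827, chromosome 7, 45613907 to 45615490, minus strand). Control samples had 0.737, 0.619 and 0.511 FPKM, from 20, 15 and 14 reads. Knockout samples had 1.19, 1.14 and 0.852 FPKM, from 34, 28 and 20 reads. The knockout samples lay above the control samples, but knockout replicate 3 and control replicate 1 both rest on 20 reads, and a limit of 3 reads corresponds to 0.105 to 0.128 FPKM on this gene. Exact Poisson 95% intervals, which cover counting error only, were 0.450 to 1.14 FPKM in control replicate 1 and 0.520 to 1.32 FPKM in knockout replicate 3. Fgf21 rose by 0.47 ± 0.15 (SE, limma adjusted p = 0.0402) on a log2 scale that understates changes of low genes; the ratio of the means was 1.71, and limma-voom on the recovered reads gave 0.76 with an adjusted p of 0.0688. The call was also lost in each of the 5 fits that left out 1 library other than knockout replicate 3, with limma adjusted p of 0.0553 to 0.128.

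Gdf15, a hormone of the TGF-β superfamily that lowers food intake through the hindbrain receptor GFRAL, fell (ENSMUSG00000038508, chromosome 8, 70629393 to 70632456, minus strand). The control replicates were at 15.7, 24.8 and 18.0 FPKM and the knockout replicates at 6.15, 7.70 and 3.02 FPKM. Control replicate 2 was highest and knockout replicate 3 lowest, and the highest knockout sample was below the lowest control sample. The means were 19.5 ± 4.74 and 5.62 ± 2.38 FPKM (SD, n = 3 each), and the log2 fold change was −1.77 ± 0.32 (SE, limma adjusted p = 0.00788). Over all tested genes 0.640% had a log2 fold change as low or lower. Without knockout replicate 3 it was −1.41, with a limma adjusted p of 0.00204. The summed macrophage markers were likewise highest in control replicate 2, at 6429 FPKM, and lowest in knockout replicate 3, at 1338 FPKM. The order matched across the control replicates but not between knockout replicates 1 and 2, where the sum was 2990 and 2796 FPKM and Gdf15 6.15 and 7.70 FPKM. The part of the macrophage markers in the fall of Gdf15 was not tested.

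Gdf15 was also lower relative to Atf4 and to Fgf21 within each sample. The ratio of Gdf15 to Atf4 was 0.223, 0.321 and 0.248 in control and 0.0919, 0.113 and 0.0533 in knockout replicates. The ratio of Gdf15 to Fgf21 was 21.3, 40.1 and 35.2 in control and 5.15, 6.75 and 3.55 in knockout replicates. Gdf15 mRNA thus exceeded that of Fgf21 in every sample of both groups.

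In control tissue the order of mean levels was Atf4 (73.5 FPKM), Atf5 (54.0 FPKM), Ddit3 (23.7 FPKM), Nupr1 (20.5 FPKM), Gdf15 (19.5 FPKM), Asns (9.86 FPKM), Sesn2 (6.36 FPKM), Trib3 (4.002 FPKM), Chac1 (2.74 FPKM) and Fgf21 (0.622 FPKM). Nupr1 and Gdf15 overlapped there, as did Trib3 and Chac1, and the other neighbours did not. In knockout tissue Atf5 came first at 93.0 FPKM with Atf4 next at 63.9 FPKM, and Gdf15 came after Chac1 at 5.62 FPKM. Overlapping neighbours there were Ddit3 with Nupr1 and Chac1 with Gdf15.

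The knockout samples did not rank alike across the 10 genes. Knockout replicate 3, with the highest adipocyte and lowest macrophage marker sum, was the highest knockout sample for Atf5, Trib3 and Asns. The same sample was the lowest for Atf4, Ddit3, Chac1, Fgf21 and Gdf15. Summed adipocyte markers in the knockout replicates were 18655, 19293 and 25305 FPKM, and summed macrophage markers were 2990, 2796 and 1338 FPKM. Without knockout replicate 3 the same 8 genes were called higher and Gdf15 lower in limma, with log2 fold changes of 0.66 for Atf5, 0.98 for Trib3, 0.74 for Asns and 1.24 for Chac1.

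**Figure D3:**
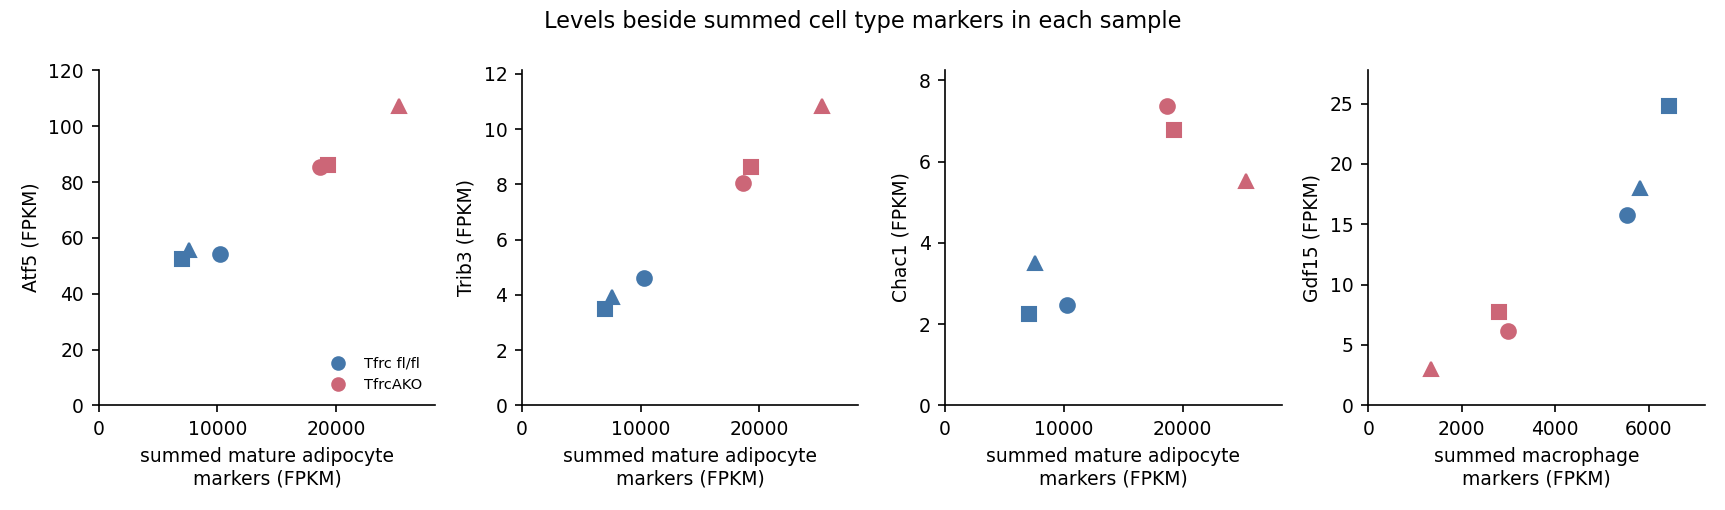
Level of Atf5, Trib3, Chac1 and Gdf15 in FPKM against the summed level of the 12 mature adipocyte markers or, for Gdf15, the 12 macrophage markers, in FPKM; each symbol is 1 sample, shaped by replicate number. Knockout replicate 3 (red triangle), with the highest adipocyte sum, is the highest sample for Atf5 at 107 FPKM and Trib3 at 10.8 FPKM but the lowest knockout sample for Chac1 at 5.52 FPKM.

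Of 16 genes for the eIF2 kinases, eIF2B subunits, phosphatase subunits and relay proteins, which start or tune the response, 4 rose and 3 fell. These numbers are near the background shares of 21.9% and 21.6% and are no result about the list; its median log2 fold change was −0.02 with members on both sides of 0. Of the 4 kinases only Eif2ak4 (GCN2, the sensor of uncharged tRNA) passed the limma threshold, at −0.31 ± 0.09 (SE, adjusted p = 0.0277), and Eif2ak1 (HRI, the heme-regulated kinase that also relays mitochondrial stress) was at 10.6 ± 0.858 and 10.5 ± 0.813 FPKM (SD, n = 3 each). Oma1, the protease of the inner mitochondrial membrane that triggers the relay to HRI, fell by 0.42 ± 0.09, and Impact, an inhibitor of GCN2 activation, fell by 0.31 ± 0.08. The eIF2B subunits Eif2b3 and Eif2b5 rose by 0.56 ± 0.10 and 0.41 ± 0.08. The number higher was 2 without any 1 control library and without knockout replicate 1 or 3, and leaving out control replicate 2 or 3 gave 0 or 1 lower. Eif2ak4 and Eif2ak1 were chosen as examples of the kinases after their values were seen.

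Among 7 bZIP factors that can pair with ATF4 or share its sites, 1 rose and 2 fell. These counts are near the shares over all tested genes, 21.9% higher and 21.6% lower, and are no result about the list. Cebpa, a factor of mature adipocytes, rose by 0.87 ± 0.21 (SE, limma adjusted p = 0.0176). Nfe2l2, the regulator of antioxidant genes, fell by 0.48 ± 0.10. Atf3, a stress factor that ATF4 induces and that macrophages also express, had 131, 165 and 137 FPKM in control and 64.2, 59.3 and 18.7 FPKM in knockout samples. Its change was −1.78 ± 0.45 on the log2 scale (SE, limma adjusted p = 0.0198). It thus fell beside Gdf15 while Ddit3 rose. Without control replicate 2 or 3 no gene of this list was called higher and 1 was called lower, and 3 were called higher without knockout replicate 3.

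The 3 lists of other ATF4 targets, 29 genes in all, had 13 higher and 3 lower among 27 tested, with a median log2 fold change of 0.33 against −0.03 over all tested genes. The shares over all tested genes were 21.9% and 21.6%. The 3 lower genes and the median include Slc7a11, which reached 0.5 FPKM only in the control samples and so entered the test through them alone. In amino acid synthesis 5 of 10 rose and none fell. Phgdh, the first enzyme of serine synthesis, had 50.5, 37.8 and 40.8 FPKM in control and 159, 172 and 281 FPKM in knockout samples, and rose by 2.19 ± 0.23. Psat1, the next enzyme, rose by 0.97 ± 0.10, Gpt2, the mitochondrial alanine transaminase, by 1.24 ± 0.17, and Cth, which makes cysteine, by 0.90 ± 0.14. The one-carbon enzymes Shmt2 and Mthfd2, classical ATF4 targets, had log2 fold changes of 0.07 and −0.02 and were not called by limma (adjusted p = 0.459 and 0.855); they were picked as examples after their values were seen.

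Among the other targets 6 of 9 tested rose and 2 fell. Stc2, a secreted stanniocalcin, rose by 1.48 ± 0.19, from 1.79, 1.53 and 1.73 FPKM to 4.49, 5.05 and 7.66 FPKM. Eif4ebp1, the repressor of cap-dependent translation, rose by 1.31 ± 0.17, Herpud1 of endoplasmic reticulum associated degradation by 0.51 ± 0.07 and Vldlr, the very low density lipoprotein receptor, by 0.60 ± 0.13. The number lower in this list, 2, was 0 without any 1 control library or without knockout replicate 1, and 1 without knockout replicate 2 or 3. Amino acid transporters had 2 of 8 tested genes higher and 1 lower, with a median log2 fold change of −0.13. Beside the shares over all tested genes, 21.9% higher and 21.6% lower, these numbers are no result about the list. Slc1a5 and Slc1a4, which carry neutral amino acids, rose by 1.42 ± 0.23 and 0.56 ± 0.14. Slc7a11, the cystine transporter, had 0.591, 0.682 and 0.662 FPKM in control and 0.106, 0.164 and 0.0944 FPKM in knockout samples. It entered the test only through the 3 control samples, so its fall is no support for a direction of the list and it drops out when any control library does. Without control replicate 2 or 3, 1 transporter was called higher.

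Genes of other stress pathways were counted in the same fit, where the shares over all tested genes were 21.9% higher and 21.6% lower. Of 20 genes of endoplasmic reticulum chaperones and the ATF6 and XBP1 arms, 1 rose and 1 fell, with a median log2 fold change of −0.08. Xbp1 rose by 0.31 ± 0.08 and Ern1, which encodes the sensor IRE1α, fell by 0.55 ± 0.12 (limma adjusted p = 0.0209 and 0.0130); both numbers were 0 without control replicate 2 or 3. Without control replicate 1 none rose, without knockout replicate 3 the numbers were 3 and 3, and without knockout replicate 1, 5 fell. Of 10 mitochondrial chaperones and proteases 7 rose and 1 fell, with a median of 0.54. Lonp1 rose by 0.68 ± 0.10, Clpx by 0.54 ± 0.09, Trap1 by 0.78 ± 0.15 and Hspa9 by 0.74 ± 0.15 (SE). The number higher was 4 without control replicate 2 or 3, and none fell without control replicate 2. The adipocyte marker sum rose in the same samples, and its part in these counts was not tested.

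Receptors for the secreted factors were measured in the same tissue. Of the 7 receptor genes 5 were tested, and 4 of these rose and none fell. Over all tested genes the shares were 21.9% higher and 21.6% lower. Fgfr4 and Gfral did not pass the filter. Fgfr4 was at no more than 0.0462 FPKM in control samples and at 0.147, 0.809 and 0.0119 FPKM in the knockout replicates. Klb, the β-Klotho coreceptor of FGF21, had 4.95, 3.16 and 3.72 FPKM in control and 7.76, 9.44 and 8.85 FPKM in knockout samples. It rose by 1.06 ± 0.16 on the log2 scale (SE, limma adjusted p = 0.00493). Fgfr3 rose by 1.74 ± 0.14 and Fgfr2 by 1.10 ± 0.13, both from levels near 1 FPKM. Fgfr1, the main FGF receptor of adipocytes, was at 56.7 ± 7.27 and 50.5 ± 4.28 FPKM (SD, n = 3 each) and was not called (limma adjusted p = 0.295). Ret, the signalling partner of GFRAL, rose by 0.95 ± 0.13, and Gfral, whose expression is known from the hindbrain, was listed at 0 in all 3 control samples and at no more than 0.0314 FPKM in knockout samples, below the level of 3 reads on a gene of 2 kb in every library (0.0489 to 0.0594 FPKM).

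**Figure D4:**
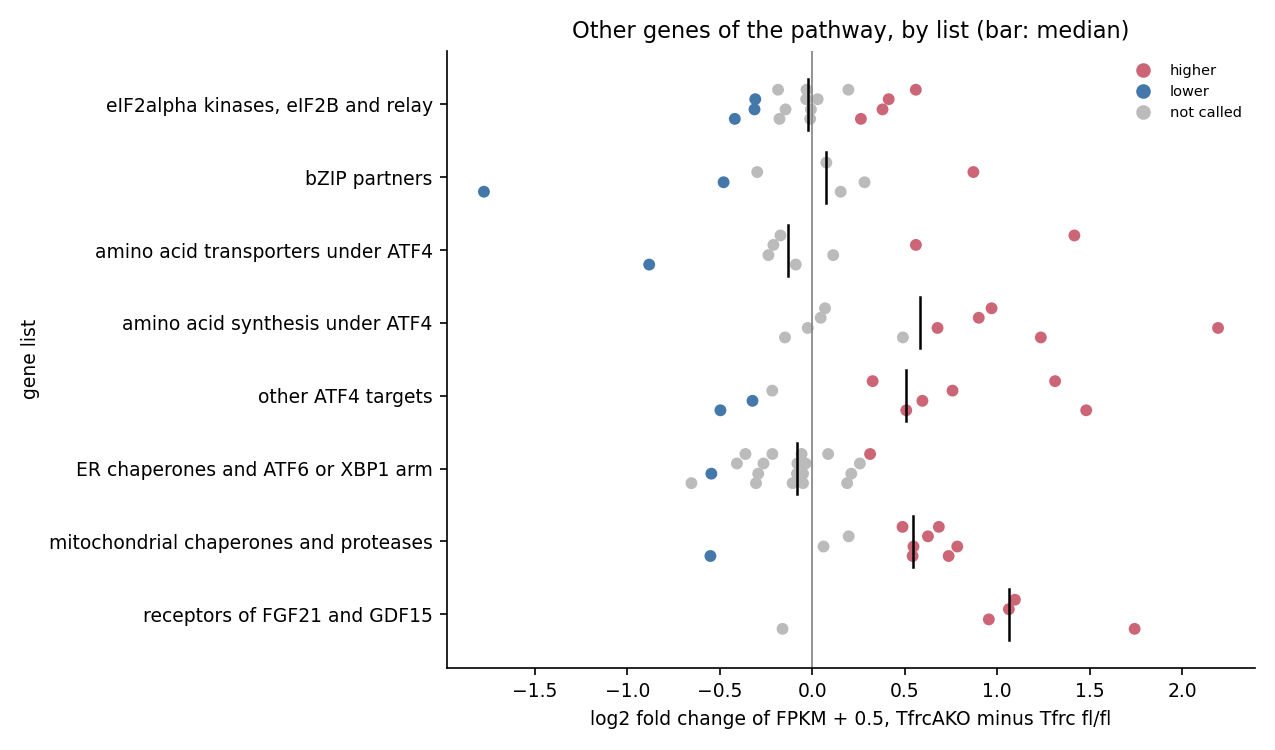
Log2 fold change of FPKM + 0.5, knockout minus control, of each tested gene in 8 lists of the pathway (points, coloured by limma call) with the list's median (bar). Medians are 0.58 for amino acid synthesis, 0.54 for mitochondrial chaperones and 1.06 for the receptors, and −0.08 for the endoplasmic reticulum list.

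Under the other processing choices the calls of Atf5, Trib3, Asns, Chac1, Sesn2, Nupr1 and Gdf15 were kept, in 14 of 14 alternative fits each, with the highest limma adjusted p of these genes at 0.0376 for Gdf15 without control replicate 2. Atf4 was not called in any of 14, with limma adjusted p of 0.0799 to 0.386. Ddit3 kept its call in 11 of 14 and Fgf21 in 4 of 13.

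**Figure D5:**
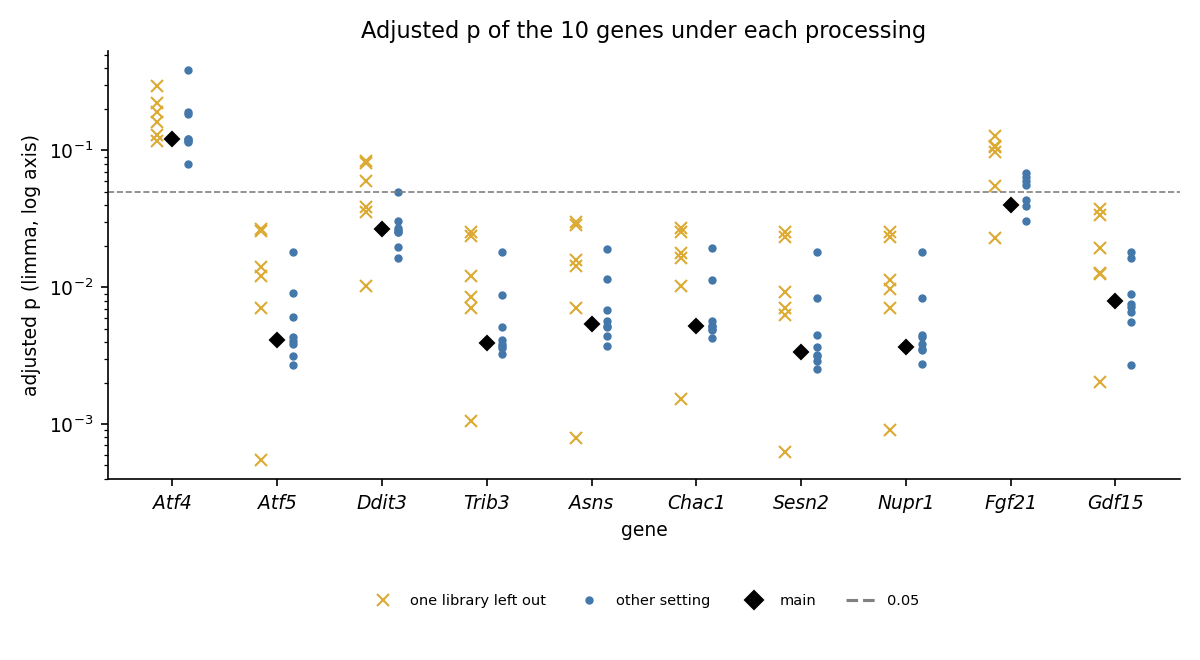
Adjusted p from limma (log axis) of each gene as reported (black), with 1 library left out (crosses) and under other settings (dots); the dashed line is 0.05. Atf4 lies above the line throughout, Fgf21 and Ddit3 cross it (up to 0.128 and 0.0833), and the other 7 genes stay below it.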

How the data were processed

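Whole-tissue RNA from 6 samples, 3 control and 3 knockout, was purified with Trizol and a Qiagen kit and sequenced from NEBNext Ultra libraries, per the labels' protocols. CASAVA, FastQC, STAR 2.5 and HTSeq 0.6.1 are named, with build mm10, per the submitters' processing notes; annotation, strand setting and filters: not given in the sources used here. The authors deposited FPKM per gene, per the file headers, which times gene length summed to 1000000 in each sample; gene length is in bases. All values were whole multiples of 1 read within 0.01 (100.0% of values above 0), which gave the reads per gene. Replicates differed by more than counting noise (chi-square per degree of freedom 16.7 to 107). Since the labels do not say that every sample is another animal, p-values measure only the spread between samples, which may be technical.

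Genes with at least 0.5 FPKM in 3 samples (14383) were fitted as log2(FPKM + 0.5) with limma 3.58.1 (R 4.3.3, trend and robust moderation, two-sided, Benjamini-Hochberg over all tested genes). Values after ± beside log2 fold changes are limma standard errors. The genes and lists were chosen with earlier results of these data known. Examples from a list are up to 4 called genes ranked by p, except where said. Older names were matched through RefSeq synonyms (Gcn1, Dele1, Ero1a and Adgre1). The alternatives were other pseudocounts, filters and scaling, limma-voom on the recovered reads, the replicate block, and libraries left out. Python 3.11.15 was used for tables.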

Additional observations from a re-analysis of the deposited data

How the results depend on the processing

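The number of genes called by limma was 3147 higher and 3106 lower with all samples. With 1 library left out it was 1903 to 2963 higher and 1283 to 3069 lower, the smallest numbers coming without control replicate 3 and control replicate 2; both fits have fewer samples. Of the 10 genes, 6 to 8 were called higher and 1 lower in every alternative. No fold change of these 10 genes or of Tfrc changed direction. Tfrc, called at a limma adjusted p of 0.0147, was at 0.0595 without control replicate 2 and 0.0525 without control replicate 3. Fgf21 had no test with a filter at 1 FPKM; its limma adjusted p was 0.0644 without a filter, 0.0688 with limma-voom and 0.0560 without knockout replicate 3 and control replicate 2. Median-of-ratios scaling moved the median of all genes from −0.03 to −0.02.

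Deviations from the group means of same-numbered samples correlated, over genes, at −0.237, 0.0305 and −0.179. With 3 samples per group these deviations are tied to each other, so the values cannot exclude that replicate numbers pair the samples. With the replicate block 2270 genes were called higher and 2311 lower, 7 of the 10 genes were called higher and 1 lower, and Fgf21 was the gene lost (limma adjusted p = 0.0601). Depth limits Fgf21, which rests on 14 to 34 reads a sample.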

Other observations

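The TGATGNAA element was also looked for in the promoter windows of the other ATF4 targets. Of the 24 of these genes matched to a window by symbol, 5 (20.8%) hold it, against 4.51% of all genes. They are Slc7a11, Slc1a4, Pycr1, Vldlr and Herpud1. Slc1a4, Vldlr and Herpud1 rose by 0.56, 0.60 and 0.51 on the log2 scale, and Pycr1 had a log2 fold change of 0.05 with a limma adjusted p of 0.868. Slc7a11 fell by 0.88, but it entered the test only through the control samples, so its fall supports no direction. The 0.5 FPKM added before the log also understates its change, as the ratio of its means, knockout to control, was 0.1885. Of the 10 genes, the 5 with the element all rose, and so did Atf5, Ddit3 and Sesn2, whose windows do not hold its letters.

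For the stricter letters TGATGCAA, 27.3% of 77 tested genes were called higher and 22.1% lower by limma, against 22.1% and 22.3% of the 9825 genes without TGATGNAA. The 77 include Chac1, Nupr1 and Fgf21, which were picked beforehand and are reported above as risen. Whether these shares differ was not tested, so they do not show that the stricter letters mark genes that rose.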
